A study of Clytia hemisphaerica and Astroides calycularis and Pocillopora acuta with 16 samples.

Results

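Planula larvae of the coral Pocillopora acuta released by parent colony C5 were compared with those released by parent colony C3, and the comparison was repeated at each end of the larva. All libraries whose labels name a colony were taken, which gave 4 of the 16 libraries of the series, 2 per colony. The C5 group held 1 pool of aboral ends and 1 pool of oral ends from C5 larvae, and the C3 group held 1 pool of each from C3 larvae. No treatment, genetic change or age was given for either group. The series as a whole compared aboral and oral ends of planulae of 3 cnidarians. For Pocillopora alone it used the colony as the replicate, so that the colony difference is the spread between the Pocillopora replicates of that design.

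Per the study's methods, both colonies had been kept for a long time in an aquarium and propagated by fragmentation. The methods describe the tagged colonies as phenotypes of a single genotype, whereas another passage calls the mother colonies likely to differ in genotype. Larvae of each colony were kept as a separate batch after night release, carried the Cladocopium symbionts of their parent, and were sorted for swimming, elongated stages before they were cut. Each pool held only a few cut ends, in unequal numbers for the 2 colonies, and in each colony the oral pool held fewer than the aboral pool. Genotype, release, larval stage, symbionts, pool size and handling batch therefore cannot be told apart from the colony. The 2 libraries of a colony came from larvae of the same colony batch. They are not independent samples of that colony, and the p-values below measure only how far the colony difference varied between the ends.

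A planula is the ciliated, swimming larva of a cnidarian. In corals it attaches by the aboral end, where sensory, secretory and mucus-forming cells are concentrated, while the oral end carries the future mouth. Planulae of a brooding coral develop inside the parent polyp and can inherit symbionts from it.

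Where a pair of values is given for a colony, the first is of its aboral ends and the second of its oral ends. Total counts were 23343274 in C5 aboral ends and 21668260 in C5 oral ends, and 24838448 in C3 aboral ends and 20256336 in C3 oral ends. The most abundant gene took 2.08% and 2.29% of the counts in the C5 libraries and 2.75% and 2.93% in the C3 libraries. The labelled ends were checked with FoxQ2-nematostella_a2 (XP_027053555), a forkhead transcription factor gene of the aboral pole, which had 2745 and 0 counts in C5 and 1391 and 0 counts in C3. The homeodomain gene ISX-like (XP_027046639), a marker of apical cells, had 710 and 0 counts in C5 and 360 and 0 counts in C3. Another apical marker, FoxQ2-nematostella_a1, had 1569 and 7 counts in C5 and 1033 and 0 counts in C3. The apical markers FGF-like and POXA-like were less confined to the aboral end. FGF-like had 1694 and 55 counts in C5 and 743 and 314 counts in C3. POXA-like had 776 and 493 CPM in C5 and 631 and 356 CPM in C3. No oral marker was used for this check. On log2 values of all tested genes, the first principal component held 62.9% of the variance and separated C5 from C3, and the second held 31.9% and separated the ends.

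Of 17164 genes tested, 3302 (19.2%) differed between the colonies at an adjusted p under 0.05. Of these, 1605 were higher in C5 (9.35% of the genes tested) and 1697 were lower in C5 (9.89%). The tests used edgeR's quasi-likelihood model with the end as a block and Benjamini-Hochberg adjustment over all genes tested, and genes past that threshold are referred to as called. The median absolute log2 difference was 0.38 over all genes and 1.36 over the called genes. Differences were shown to exceed 2-fold, by a test against that fold, for 315 genes higher in C5 (1.84%) and 418 genes lower in C5 (2.44%). Scaling by total counts alone gave 2138 calls higher and 1486 lower in C5, because it moved the median log2 difference of all genes to 0.10, against 0.00 with the scaling used here. Without the end as a block, the same 4 libraries gave 87 calls, 44 higher and 43 lower in C5. Leaving out any 1 of the 4 libraries, which also removed the end from the model, gave 0 calls by edgeR, with 1657 to 3942 genes at an unadjusted p under 0.05.

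The colony difference was then computed for each end on its own, from 1 library of each colony. It was the log2 ratio of CPM, which are counts scaled to a common library size, with a prior count of 2. The SD of these differences across genes was 1.08 for aboral ends and 1.195 for oral ends. Across the 17164 genes, the 2 sets of differences had a Pearson correlation of 0.83 and a Spearman correlation of 0.72. The 2 ends share no library but share the colony batch, and genes are not independent replicates. At least 2-fold differences in the same direction at both ends were found for 1053 genes higher in C5 (6.13%) and 1110 genes lower in C5 (6.47%). In opposite directions, 33 genes differed by at least 2-fold, 17 of them higher in C5 at the aboral end and 16 higher in C5 at the oral end. Of the 3302 called genes, 3301 had the same sign at both ends and 1837 (55.6%) reached 2-fold at both, but the model favours genes whose difference is alike at both ends, so this share is a description.

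**Figure D1:**
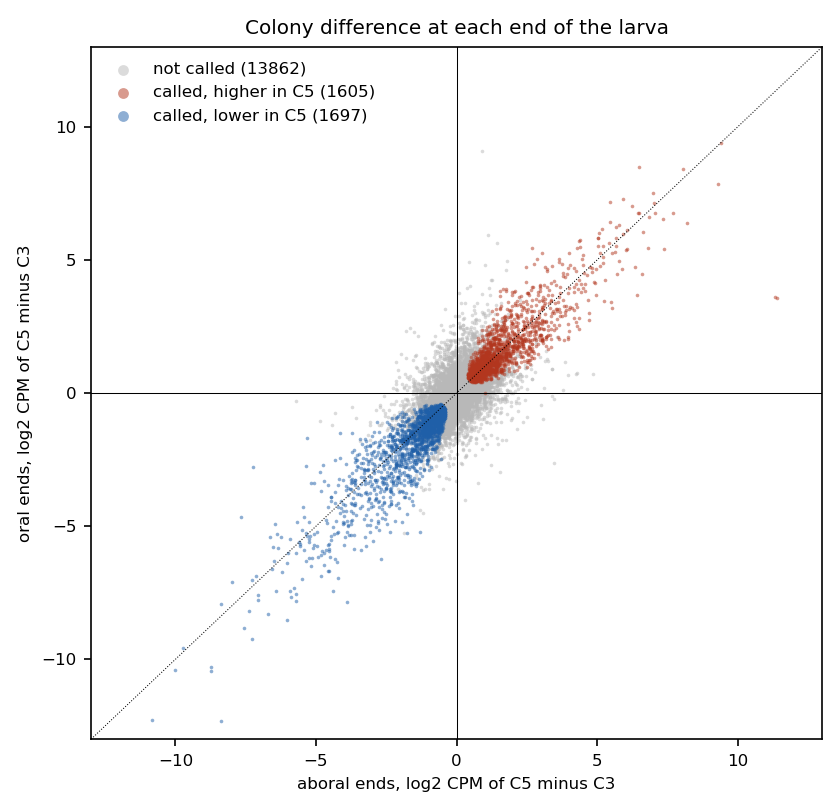
Each point is 1 of 17164 genes, with the log2 CPM difference between C5 and C3 at the aboral ends on the x axis and at the oral ends on the y axis, red where called higher in C5, blue where called lower in C5 and grey where not called. Points lie along the dotted line of equality, with 1053 genes at least 2-fold higher in C5 at both ends, 1110 at least 2-fold lower at both and 33 at least 2-fold in opposite directions.

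Calls were found at all levels of expression. Among genes under 1 CPM, 159 of 1236 (12.9%) were called and 20 (1.62%) passed 2-fold. Among genes averaging 1 to 10 CPM over the 4 libraries, 1114 of 5178 (21.5%) were called. In the largest class, of 10 to 100 CPM, 1657 of 8551 (19.4%) were called and 307 (3.59%) passed 2-fold. Among genes of 100 CPM or more, 372 of 2199 (16.9%) were called. The correlation of the colony difference between the ends was 0.72 for genes under 1 CPM and 0.83 for genes of 1 to 10 CPM. It was 0.85 for genes of 10 to 100 CPM and 0.89 for genes of 100 CPM or more. A name or protein domain was given by the study's lists for 1380 of the tested genes, of which 185 (13.4%) were called and 20 (1.45%) passed 2-fold. Among the 15784 other genes, 19.7% were called and 713 (4.52%) passed 2-fold. The annotated genes had a median of 45.4 CPM and the other genes a median of 16.7 CPM. Most of the large colony differences thus fell in genes for which no name or domain was used here.

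For scale, the same fit was run on the aboral and oral libraries of the other 2 species, with replicate 2 against replicate 1 in place of the colonies. In Clytia hemisphaerica 2989 of 15446 genes (19.4%) were called and 3 passed 2-fold, and in Astroides calycularis 4642 of 20876 (22.2%) were called and 299 passed 2-fold. The median absolute log2 difference was 0.38 between the Pocillopora colonies, 0.14 between the Clytia replicates and 0.24 between the Astroides replicates. At least 2-fold differences in the same direction at both ends were found for 2163 genes in Pocillopora, 32 in Clytia and 803 in Astroides. The share of genes called was thus similar in the 3 species while the sizes of the differences were not. No test of the difference between species was made. Per the methods, Pocillopora pools held far fewer cut ends than Clytia pools and fewer than Astroides pools. Pool size therefore cannot be told apart from species in these values.

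Among annotated genes called, at least 2-fold at both ends and at 10 CPM or more in the higher colony, 18 were higher in C5 and 23 were lower in C5, out of 421 and 524 such genes in all. The 12 largest each way are described here, where ± gives the standard error of the fitted log2 difference. Domains of some genes were those of an ortholog in another of the studied species, which is stated where it applies.

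XP_027060236, which carries the domains of cysteine-rich secretory proteins and of ShK toxins (a fold first found in a potassium channel blocker of sea anemones), stood at 19.9 and 14.0 CPM in aboral and oral ends of C5, against 0.619 and 0.517 CPM in those of C3. Both C5 libraries lay far above both C3 libraries, and the log2 difference was 4.89 ± 0.27, adjusted p = 0.00193. The related gene XP_027047975, named ShK-like and likewise carrying both domains, stood at 309 and 205 CPM in aboral and oral ends of C5, against 49.3 and 24.3 CPM in those of C3, a log2 difference of 2.86 ± 0.16, adjusted p = 0.00207. Both genes belong to the markers of the neurosecretory2 cells described below.

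XP_027051615 encodes von Willebrand factor A and thrombospondin type 1 domains, which mediate binding between cells and matrix, and is one of the aboral genes of the study. It had 728 and 265 CPM in aboral and oral ends of C5, against 45.0 and 6.88 CPM in those of C3. The level was higher at the aboral end in each colony, and the C5 oral ends still exceeded the C3 aboral ends, with a log2 difference between colonies of 4.598 ± 0.34, adjusted p = 0.00324. Other genes with a von Willebrand factor A domain in their ortholog were XP_027036302, which also has the domain of a seven-transmembrane receptor, at 9.61 and 11.9 CPM in C5 and 2.43 and 1.29 CPM in C3 (log2 difference 2.54 ± 0.37, adjusted p = 0.0138), and XP_027045601, at 10.1 and 13.04 CPM in C5 and 1.69 and 4.19 CPM in C3 (log2 difference 2.08 ± 0.31, adjusted p = 0.0151). XP_027035926, with the fibrinogen-type globular domain of many secreted recognition proteins, had 60.2 and 37.3 CPM in aboral and oral ends of C5, against 28.2 and 7.86 CPM in those of C3, a log2 difference of 1.64 ± 0.30, adjusted p = 0.0241.

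The cytochrome P450 gene XP_027056946, of a family of haem enzymes that oxidise small molecules, had 91.6 and 16.5 CPM in aboral and oral ends of C5, against 34.3 and 2.84 CPM in those of C3. Its level differed between the ends more than between the colonies, so that the colony ranges overlapped while C5 was higher at each end (log2 difference 1.89 ± 0.29, adjusted p = 0.0157). The same held for the spectrin repeat gene XP_027040807, a cytoskeletal protein, with 37.3 and 8.62 CPM in C5 and 16.5 and 1.76 CPM in C3 (log2 difference 1.63 ± 0.30, adjusted p = 0.0252).

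A ligand-gated ion channel gene, XP_027047056 (domain of its ortholog), had 14.2 and 15.1 CPM in aboral and oral ends of C5, against 3.63 and 5.33 CPM in those of C3, a log2 difference of 1.73 ± 0.23, adjusted p = 0.0114. Its levels at the ends were close to each other in both colonies. The zinc finger gene XP_027049564 (domain of its ortholog) had a log2 difference of 1.88 ± 0.25, adjusted p = 0.0114. The dual specificity phosphatase gene XP_027052902 (domain of its ortholog), of a family that removes phosphate from tyrosine and serine or threonine, had 63.1 and 61.3 CPM in C5 and 18.6 and 23.1 CPM in C3 and a log2 difference of 1.59 ± 0.16, adjusted p = 0.00603. XP_027052882, whose ortholog has the domain of GKAP, a scaffold protein of synapses in vertebrates, had a log2 difference of 1.47 ± 0.26, adjusted p = 0.0229.

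Among the genes lower in C5, XP_027043000, with a zona pellucida domain (a domain by which secreted proteins join into filaments) and EGF-like domains, had 0 and 1 counts in C5 and 328 and 1543 counts in C3. With 1 count in all in C5, the level in C3 over that in C5 was 1999.6, with an exact 95% interval for counting error of 358 to 79023. XP_027048831, with EGF-like and immunoglobulin domains, had 0.253 and 1.36 CPM in aboral and oral ends of C5, against 25.5 and 152 CPM in those of C3, and both C5 libraries lay far under both C3 libraries (log2 difference -6.76 ± 0.20, adjusted p = 0.000664). XP_027047409, a tissue inhibitor of metalloproteinase, of a family that blocks enzymes degrading the matrix, had 0.126 and 2.28 CPM in aboral and oral ends of C5, against 21.3 and 99.9 CPM in those of C3, a log2 difference of -5.85 ± 0.37, adjusted p = 0.00228. All 3 genes were higher in the oral than in the aboral ends of C3.

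XP_027039048, whose ortholog has an ShK domain, had 3.20 and 3.63 CPM in aboral and oral ends of C5, against 48.5 and 103 CPM in those of C3, a log2 difference of -4.38 ± 0.27, adjusted p = 0.00225. ShK domain genes thus stood among the largest differences in both directions. The TIR domain gene XP_027059283, from a family of signalling proteins used by Toll-like receptors, had 8.30 and 0.481 CPM in aboral and oral ends of C5, against 30.7 and 6.10 CPM in those of C3, a log2 difference of -2.46 ± 0.42, adjusted p = 0.0202. XP_027054143, which carries the domain of the gamma chain of interleukin receptors, had 0.590 and 5.12 CPM in C5 and 2.93 and 20.5 CPM in C3 (log2 difference -2.11 ± 0.25, adjusted p = 0.00891). Both are genes with a strong end difference, and their colony ranges overlapped although C5 was lower at each end.

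Metabolic enzymes lower in C5 were a dihydrofolate reductase (XP_027051953), which makes the folate cofactor of nucleotide synthesis, an iodothyronine deiodinase (XP_027047993), which in vertebrates removes iodine from thyroid hormones, and a methyltransferase of the ubiE/COQ5 family (XP_027054211). These 3 domains are those of the orthologs. The dihydrofolate reductase gene had 2.91 and 7.002 CPM in aboral and oral ends of C5, against 30.7 and 26.6 CPM in those of C3, a log2 difference of -2.62 ± 0.38, adjusted p = 0.0139. The deiodinase gene had 32.8 and 16.6 CPM in aboral and oral ends of C5, against 88.9 and 127 CPM in those of C3, a log2 difference of -2.17 ± 0.37, adjusted p = 0.0202. The methyltransferase gene had a log2 difference of -2.32 ± 0.30, adjusted p = 0.0106.

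Among receptors and regulators, the rhodopsin-type G protein-coupled receptor XP_027057574 had 2.19 and 1.18 CPM in C5 and 7.43 and 12.8 CPM in C3 (log2 difference -2.55 ± 0.45, adjusted p = 0.0231), and the receptor XP_027035771 (domain of its ortholog) had 1.52 and 4.33 CPM in C5 and 4.37 and 25.03 CPM in C3 (log2 difference -2.09 ± 0.32, adjusted p = 0.0156). The homeodomain gene XP_027043454, an oral gene, had 0.632 and 6.17 CPM in aboral and oral ends of C5, against 2.89 and 35.1 CPM in those of C3. It was strongly oral in both colonies, and its level in C5 was lower at each end, with a log2 difference of -2.40 ± 0.23, adjusted p = 0.00564.

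**Figure D2:**
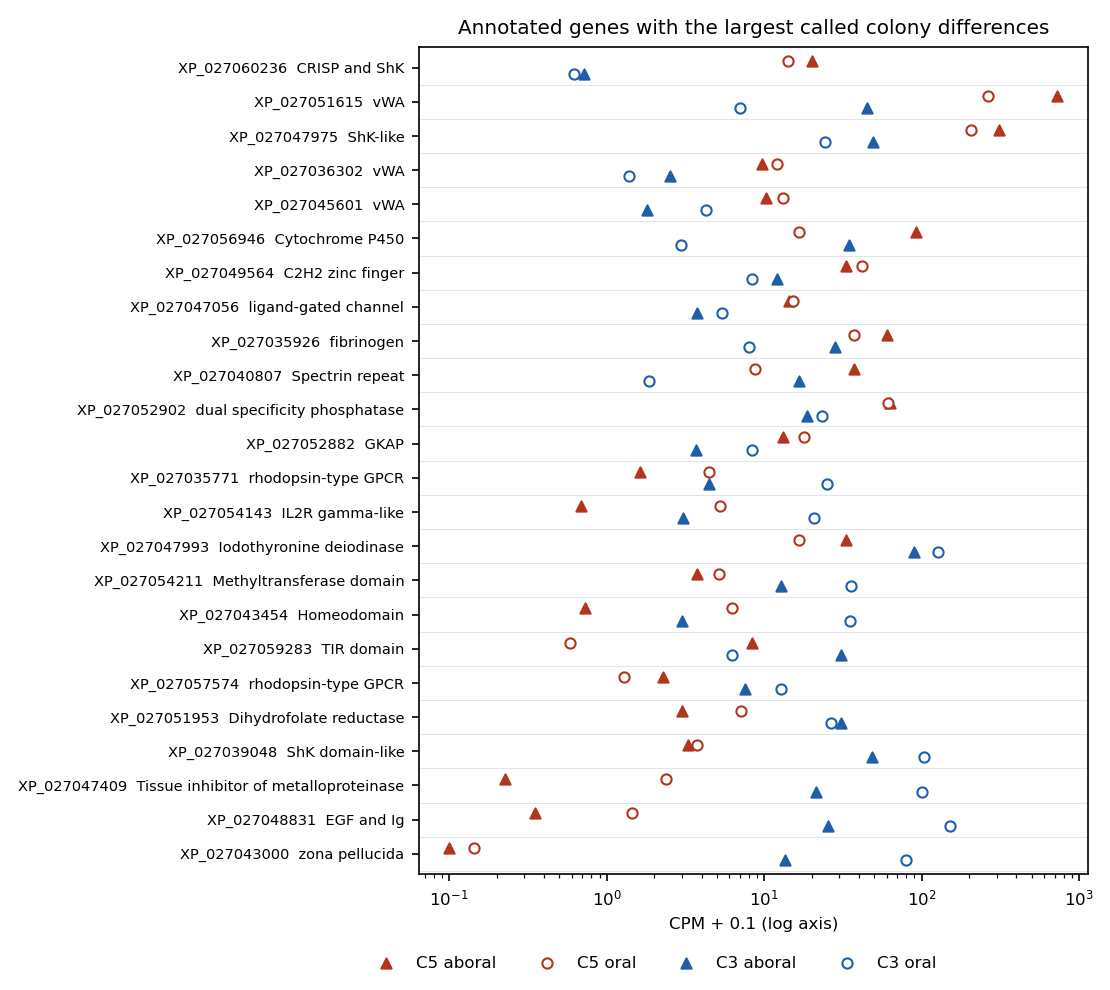
CPM plus 0.1 on a log axis in each of the 4 libraries for the 24 annotated genes with the largest called colony differences of at least 2-fold at both ends, with C5 in red above C3 in blue in each row, filled triangles for aboral and open circles for oral ends. The upper 12 genes were higher in C5 and the lower 12 were lower in C5 at each end, down to XP_027043000 with 0 and 1 counts in C5.

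Some genes had counts in both libraries of one colony and none in the other. Of the genes in the files, 7 had at least 5 CPM in both C5 libraries and 0 counts in both C3 libraries, and 3 had at least 5 CPM in both C3 libraries and 0 counts in both C5 libraries. None of the 10 had a name or a domain. Folds against an empty colony are lower bounds, set by a floor of 3 counts over its 2 libraries, and they cover counting error only.

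XP_027055459 had 1410 counts (59.4 CPM) in aboral and 1360 counts (59.5 CPM) in oral ends of C5, which was at least 864-fold higher than in C3. XP_027059300 had 559 and 688 counts in C5 aboral and oral ends, at least 389-fold higher than in C3. The next 3 by level, XP_027045165, XP_027055457 and XP_027041013, had between 220 and 369 counts per C5 library and were at least 199-fold, 173-fold and 156-fold higher in C5. Their counts at both ends were required by the choice of genes.

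In the other direction, XP_027041975 had 3958 counts (163 CPM) in aboral and 8447 counts (437 CPM) in oral ends of C3, and was at least 4419-fold lower in C5. XP_027043747 had 287 and 377 counts in C3 aboral and oral ends (at least 237-fold lower in C5), and XP_027048259 had 140 and 141 counts (at least 100.1-fold lower in C5). XP_027047601, also without annotation, had 0 and 1 counts in C5 and 1824 and 1937 counts in C3, and its level in C3 over that in C5 was 4019.6 with an exact 95% interval for counting error of 721 to 158806. With a minimum of 1 CPM in place of 5, the counts of such genes were 21 for C5 and 18 for C3, and with 10 CPM they were 4 and 2.

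The libraries were bulk pools, in which fewer cells of a type and less RNA per cell cannot be told apart. Markers that the study gave as diagnostic of cell classes in single-cell data were therefore read as levels in the pool. Both markers of the specialized epidermis were called higher in C5, beside 9.35% of all genes. XP_027040326 had 153 and 152 CPM in aboral and oral ends of C5, against 27.6 and 8.43 CPM in those of C3, and its log2 difference was 3.27 ± 0.43, adjusted p = 0.0107. The ShK domain-like gene XP_027057795 was much scarcer, at 1.94 and 3.19 CPM in C5 and 0.0413 and 0.155 CPM in C3, with a log2 difference of 4.70 ± 0.58, adjusted p = 0.00945. The summed level of the 2 markers was 155 CPM at each end of C5, against 27.6 CPM in aboral and 8.59 CPM in oral ends of C3.

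The general epidermal markers differed less. Over all genes 19.2% were called, and lists of 3 genes are too short to be read against that share. Of 3, XP_027044136 was called, at 139 and 185 CPM in C5 and 102 and 86.3 CPM in C3 (log2 difference 0.77 ± 0.19, adjusted p = 0.0471), while XP_027053960 had a log2 difference of 0.58 ± 0.22, adjusted p = 0.129 and Sox3 (XP_027038477), a transcription factor gene, had 0.24 ± 0.17, adjusted p = 0.355. Of 3 cnidocyte markers, Znfn845 (XP_027039484, a zinc finger gene) was called at a low level, with 8.43 and 6.96 CPM in C5 and 4.46 and 3.41 CPM in C3 and a log2 difference of 0.97 ± 0.24, adjusted p = 0.0476. Ncol3 (XP_027042144), a minicollagen of the stinging capsule, had 37.3 and 24.6 CPM in C5 and 16.0 and 18.4 CPM in C3 and a log2 difference of 0.83 ± 0.24, adjusted p = 0.0683, and nematogalectin-like (XP_027037748), a protein of the capsule's tubule, had 0.48 ± 0.21, adjusted p = 0.174.

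No marker of the inner layer was called, beside 19.2% of all genes. The lists of this paragraph are too short for their counts to be read against that share. Of 3 gastroderm markers, the genes ZF-C3H11 (XP_027055412), Testican2-like (XP_027036617) and COA-like2 (XP_027059036) had log2 differences of -0.11, 0.40 and 0.05, and their summed level was 2182 CPM in C5 aboral and 4121 CPM in C5 oral ends, against 1770.2 and 4420.0 CPM in C3 aboral and oral ends. Both markers of digestive filaments, Nkx2-8-like (XP_027038915) and OIT3-like12 (XP_027046940), had log2 differences of -0.02 and -0.30. Both secretory markers, AshC (XP_027048909) and PA2-like2 (XP_027047046), had -0.21 and 0.16. Of 6 neural markers, 1 was called, the neuropeptide precursor GVWamide described below, and the pan-neural genes ELAV (XP_027049686, an RNA-binding protein) and AshA (XP_027048862, a proneural transcription factor) had log2 differences of -0.10 and 0.01.

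None of the 4 diagnostic apical markers was called. FoxQ2-nematostella_a1 (XP_027053483) had 66.1 and 0.306 CPM in C5 and 42.6 and 0 CPM in C3, with a log2 difference of 0.79 ± 0.38, adjusted p = 0.2. ISX-like had 1.01 ± 0.29, adjusted p = 0.0845, and POXA-like (XP_027045474), a haem peroxidase, had 0.38 ± 0.13, adjusted p = 0.103. On the longer list of 24 apical cell markers, 2 (8.33%) were called, both higher in C5, which is no larger a share than the 9.35% of all genes. The median log2 difference of the list was 0.31, beside 0.00 over all genes. The 2 called were FoxQ2-nematostella_a2, at 116 and 0 CPM in C5 and 57.4 and 0 CPM in C3 (log2 difference 1.01 ± 0.21, adjusted p = 0.0425), and OXDA-like (XP_027057412), an FAD-dependent oxidoreductase, with 0.87 ± 0.17, adjusted p = 0.0265. FoxQ2-nematostella_a2 and ISX-like had 0 counts in the oral ends of both colonies. Their standard errors and p-values therefore rest on the aboral ends alone and do not measure how far the colony difference varied between the ends.

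Gland and mucous cell markers were more often higher than lower in C5. Of 41 such markers, 9 (22.0%) were higher and 2 (4.88%) were lower, beside 9.35% and 9.89% of all genes, and the median log2 difference was 0.22. XP_027037964 and XP_027037933, without annotation, were the largest. XP_027037964 had 5751 and 78 counts in C5 and 0 and 4 counts in C3, and XP_027037933 had 5412 and 109 counts in C5 and 0 and 6 counts in C3. Their log2 differences were 10.25 ± 1.24, adjusted p = 0.00907, and 9.51 ± 1.34, adjusted p = 0.013. The counts of the 2 genes ran side by side in all 4 libraries, and whether the 2 gene models are near-identical copies was not tested.

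The most abundant gland and mucous marker, XP_027050443, also an aboral gene, had 6049.9 and 1499 CPM in aboral and oral ends of C5, against 1556 and 330.3 CPM in those of C3, a log2 difference of 2.07 ± 0.15, adjusted p = 0.00298. RFX4 (XP_027047616), a transcription factor gene and diagnostic marker of these cells, had 122 and 45.2 CPM in C5 and 66.0 and 17.4 CPM in C3 and a log2 difference of 1.12 ± 0.16, adjusted p = 0.0139. Mucin2 (XP_027054112), a secreted gel-forming protein and the best known product of mucous cells, had 655 and 83.1 CPM in C5 and 531 and 103 CPM in C3, with a log2 difference of 0.00 ± 0.18, adjusted p = 0.992. ALK-like (XP_027042500), the remaining diagnostic marker of these cells, was named by the study after a tyrosine kinase receptor and had a log2 difference of -0.30 ± 0.15, adjusted p = 0.199. The 2 markers lower in C5 were an acetyltransferase gene (XP_027048245, log2 difference -0.74) and a cystine-knot gene (XP_027054018, log2 difference -0.63).

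The 2 neurosecretory marker lists had medians of opposite sign, and the difference between the lists was not tested. Of 24 neurosecretory2 markers, 5 (20.8%) were higher and 1 (4.17%) was lower in C5, beside 9.35% and 9.89% of all genes, with a median log2 difference of 0.46, and of 0.05 in aboral and 1.05 in oral ends. Besides the cysteine-rich secretory genes above, the largest was PLCL-like (XP_027038084), with lectin and spondin-type domains, at 1.22 and 1.75 CPM in C5 and 0.165 and 0.259 CPM in C3 (log2 difference 2.79 ± 0.52, adjusted p = 0.0257). The lower one was the astacin-type metalloprotease gene MLRP1-like (XP_027036672), at 53.7 and 50.6 CPM in aboral and oral ends of C5, against 145 and 124 CPM in those of C3, a log2 difference of -1.37 ± 0.12, adjusted p = 0.00469. Of 28 neurosecretory1 markers, none was higher and 1 (3.57%) was lower in C5, the receptor XP_027057574, with a median of -0.23. Of the other diagnostic neurosecretory markers, NKX2-5 (XP_027041575), PAX6-like (XP_027036201) and a secreted cysteine-rich gene (XP_027054855) had log2 differences of -0.32, 0.51 and 0.46, none called.

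The study's own lists of end-enriched genes were chosen on these libraries with the colony accounted for, so they are not independent evidence. Of its 83 oral genes, 4 (4.82%) were higher and 20 (24.1%) were lower in C5, beside 9.35% and 9.89% of all genes, and the median log2 difference was -0.52. In the aboral ends the median was -0.18 and in the oral ends -0.71. The summed level of these genes was 763 CPM in aboral and 3760.3 CPM in oral ends of C5, against 1731 and 9445 CPM in those of C3. Levels of XP_027060599 and XP_027058100, both without annotation, made up much of that difference. XP_027060599 had 3.33 and 16.3 CPM in aboral and oral ends of C5, against 533 and 2143 CPM in those of C3 (log2 difference -7.16 ± 0.19, adjusted p = 0.000631), and XP_027058100 had 17.3 and 55.3 CPM in aboral and oral ends of C5, against 277 and 1364 CPM in those of C3 (log2 difference -4.32 ± 0.21, adjusted p = 0.00136). Without these 2 genes the sums were 742 and 3689 CPM in C5 aboral and oral ends and 921 and 5938 CPM in C3 aboral and oral ends. The oral genes higher in C5 included XP_027040140, at 19.0 and 68.8 CPM in C5 and 3.96 and 19.4 CPM in C3 (log2 difference 2.02 ± 0.18, adjusted p = 0.00476), and a forkhead gene described below.

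Of the 126 aboral genes, 13 (10.3%) were higher and 14 (11.1%) were lower in C5, close to the shares over all genes. Higher in C5 were the fibroblast growth factor gene XP_027043936, at 76.6 and 1.75 CPM in C5 and 36.0 and 0.362 CPM in C3 (log2 difference 1.33 ± 0.27, adjusted p = 0.0314), XP_027051615, XP_027050443 and the cytochrome P450 gene. Lower in C5 were the TIR domain gene, XP_027041153 without annotation, and the rhodopsin-type receptor XP_027060152, at 63.4 and 2.32 CPM in aboral and oral ends of C5, against 230.2 and 11.8 CPM in those of C3, a log2 difference of -2.05 ± 0.17, adjusted p = 0.00384. The ammonium transporter gene XP_027047248, a member of the family that carries ammonium across membranes, had 289 and 73.2 CPM in aboral and oral ends of C5, against 1000.1 and 285 CPM in those of C3, a log2 difference of -1.88 ± 0.13, adjusted p = 0.00296. It and XP_027058100 were singled out after their values were seen. The summed level of the aboral list was 28494 CPM in aboral and 5988 CPM in oral ends of C5, 4.76 times higher at the aboral end, against 25136 and 3917 CPM in those of C3, 6.42 times higher at the aboral end.

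Other lists were read by protein domain, and may lack members because the study's table of ortholog domains was held only in part. Of 20 genes with von Willebrand factor A or collagen domains, 6 (30.0%) were higher and 1 (5%) was lower in C5, with a median log2 difference of 0.52. Of 24 thrombospondin and spondin genes, 5 (20.8%) were higher and 2 (8.33%) were lower, with a median of 0.36. The shares over all genes were 9.35% and 9.89%. The 2 lists share 6 genes, among them XP_027051615 and XP_027051623, so that their counts are not separate. XP_027051623, with the same kinds of domain as XP_027051615, was lower in C5, at 427 and 146 CPM in aboral and oral ends of C5, against 723 and 204 CPM in those of C3, a log2 difference of -0.62 ± 0.14, adjusted p = 0.0395. A spondin-type gene, XP_027045738 (domain of its ortholog), had 4.68 and 2.71 CPM in C5 and 1.28 and 0.414 CPM in C3 and a log2 difference of 2.20 ± 0.40, adjusted p = 0.0241.

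Of 24 secreted peptidase genes, 1 (4.17%) was higher and 5 (20.8%) were lower in C5, beside 9.35% and 9.89% of all genes. Their log2 differences were below 0 in 13 and above 0 in 11, with a median of -0.07. The trypsin-type genes XP_027046893 and XP_027040367 had 4.30 and 31.0 CPM in C5 and 8.79 and 68.8 CPM in C3, and 49.9 and 15.6 CPM in C5 and 124 and 24.4 CPM in C3, with log2 differences of -1.10 ± 0.15, adjusted p = 0.0129, and -0.995 ± 0.20, adjusted p = 0.0295. The one higher in C5, XP_027037832, is a reprolysin-type metalloprotease of matrix proteins by its ortholog's domains, with 5.27 and 3.46 CPM in C5 and 1.77 and 1.19 CPM in C3 and a log2 difference of 1.55 ± 0.31, adjusted p = 0.0307. Of 25 genes with lectin or F5/8 domains, which bind sugars and cell surfaces, 4 (16.0%) were higher and 1 (4%) was lower. The lower one was the lectin XP_027044600, at 2.78 and 31.8 CPM in aboral and oral ends of C5, against 8.003 and 139 CPM in those of C3, a log2 difference of -1.88 ± 0.20, adjusted p = 0.00671.

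Of 10 genes with immune-type domains, none was higher and 3 (30.0%) were lower in C5, beside 9.35% and 9.89% of all genes, with a median of -0.50. They were the TIR domain gene above, XP_027039477, of the perforin family that forms pores in membranes, at 62.7 and 15.7 CPM in aboral and oral ends of C5, against 123 and 33.8 CPM in those of C3 (log2 difference -1.04 ± 0.13, adjusted p = 0.00929), and XP_027049732, whose ortholog has a caspase recruitment domain, at 33.7 and 37.1 CPM in C5 and 53.5 and 90.0 CPM in C3 (log2 difference -0.97 ± 0.19, adjusted p = 0.0267). The list is short, and its 7 other genes were not called.

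Of 34 homeodomain transcription factor genes, 1 (2.94%) was higher and 1 (2.94%) was lower in C5, and of 13 forkhead genes 2 (15.4%) were higher and 1 (7.69%) was lower, beside 9.35% and 9.89% of all genes. The lower homeodomain gene was XP_027043454, given above at -2.40. The homeodomain gene higher in C5, XP_027049030 (domain of its ortholog), had 67.9 and 37.5 CPM in C5 and 40.2 and 9.52 CPM in C3 (log2 difference 1.34 ± 0.31, adjusted p = 0.0418). The oral forkhead gene XP_027037524 had 6.79 and 39.4 CPM in C5 and 3.26 and 24.7 CPM in C3 (log2 difference 0.84 ± 0.19, adjusted p = 0.0385), and XP_027055756, whose ortholog has the HNF3-type domains of endodermal forkhead factors, had 43.3 and 126 CPM in C5 and 59.2 and 198 CPM in C3 (log2 difference -0.55 ± 0.13, adjusted p = 0.0406). Of 19 other transcription factor genes, 5 (26.3%) were higher and 2 (10.5%) were lower, with a median of -0.11. The leucine zipper gene XP_027055235 (domain of its ortholog) had 419 and 561 CPM in aboral and oral ends of C5, against 167 and 204 CPM in those of C3, a log2 difference of 1.39 ± 0.13, adjusted p = 0.00509. The HMG box gene XP_027050795 (domain of its ortholog) had 1.197 ± 0.16, adjusted p = 0.0116, and the HMG box gene XP_027047017, an oral one, had -1.69 ± 0.31, adjusted p = 0.0255.

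Of 40 rhodopsin-type receptor genes, 1 was higher and 4 (10%) were lower in C5, and of 24 ion channel genes 4 (16.7%) were higher and 2 (8.33%) were lower. The shares lower in C5 were close to the 9.89% of all genes, and the share of all genes higher in C5 was 9.35%. The receptor higher in C5, XP_027055055 (domain of its ortholog), had 15.7 and 4.16 CPM in C5 and 6.27 and 0.931 CPM in C3 (log2 difference 1.64 ± 0.30, adjusted p = 0.0241). The ion channel with the largest difference, XP_027040531, whose ortholog has the domain of polycystin cation channels, had 80 and 81 counts in C5 and 0 and 2 counts in C3, and its level in C5 over that in C3 was 75.3 with an exact 95% interval for counting error of 20.5 to 627. Another polycystin-type channel, XP_027053271 (domain of its ortholog), was lower, at 105 and 97.9 CPM in C5 and 158 and 180.2 CPM in C3 (log2 difference -0.74 ± 0.14, adjusted p = 0.0252). The secretin-type receptor XP_027057142, an aboral gene, had 67.7 and 10.02 CPM in aboral and oral ends of C5, against 199 and 30.7 CPM in those of C3, a log2 difference of -1.58 ± 0.12, adjusted p = 0.00342.

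None of the 11 Wnt ligand genes, whose proteins pattern the oral end of cnidarians, was called, beside 19.2% of all genes. The list is short, and its count was not tested against that share. The most abundant, XP_027043512, had 49.1 and 164 CPM in C5 and 40.3 and 275 CPM in C3, a log2 difference of -0.24 ± 0.26, adjusted p = 0.546. Of 14 genes on the Wnt receptor and inhibitor list, 1 (7.14%) was called higher in C5, beside 9.35% of all genes. The called gene was XP_027036302 above. It was listed for a Frizzled/Smoothened membrane region of its ortholog. That ortholog also has von Willebrand factor A, secretin-type receptor and chitinase domains, so the gene need not be a Wnt receptor. Of 11 FGF and TGF-beta ligand genes, 1 (9.09%) was higher and 1 (9.09%) was lower, close to the 9.35% and 9.89% of all genes. The higher one was the FGF gene XP_027043936. The lower one was a TGF-beta gene, XP_027051421 (domain of its ortholog), at 19.9 and 48.1 CPM in C5 and 29.0 and 76.4 CPM in C3 (log2 difference -0.61 ± 0.14, adjusted p = 0.0385).

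Lists of basic cell functions were read against the 19.2% of all genes called. Of 82 ribosomal protein genes, 2 (2.44%) were higher and none was lower in C5, with a median log2 difference of 0.06 and a range of -0.52 to 0.68. None of 20 translation factor, 16 redox or 11 helicase genes was called. Of 16 proteasome genes none was higher and 2 (12.5%) were lower, of 20 mitochondrial energy genes 1 was higher, of 36 RNA recognition motif genes 1 was higher, and of 40 axoneme genes, which build cilia, 1 was higher and 3 (7.50%) were lower. In DNA replication, 2 of 17 genes (11.8%) were higher, both subunits of ribonucleotide reductase, which makes the building blocks of DNA. The small subunit gene XP_027059468 had 21.2 and 47.4 CPM in C5 and 8.70 and 20.0 CPM in C3 (log2 difference 1.26 ± 0.15, adjusted p = 0.00922), and the large subunit gene XP_027055485 had a log2 difference of 0.72 ± 0.17, adjusted p = 0.0465. The domains of both are those of their orthologs.

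Further short lists held single large differences. Of 20 genes on the heat shock and chaperone list, 1 (5%) was higher and 1 (5%) was lower, beside 9.35% and 9.89% of all genes. The higher one, XP_027049964, was listed for the HSP90-like ATPase domain of its ortholog. That ortholog also has DNA gyrase and topoisomerase domains, so the gene need not be a chaperone. Its log2 difference was 0.94 ± 0.12, adjusted p = 0.0113. The lower one was XP_027053948, whose ortholog carries the domain of a cofactor of the chaperone Hsp70, at 108 and 97.3 CPM in aboral and oral ends of C5, against 199 and 362 CPM in those of C3, a log2 difference of -1.39 ± 0.26, adjusted p = 0.026. Of 5 lipoxygenase and lipase genes tested, none was higher and 2 (40.0%) were lower in C5. Both were lipoxygenase genes, XP_027036755 and XP_027048285 (domains of their orthologs), of a family that oxidises fatty acids. Their log2 differences were -1.21 ± 0.19, adjusted p = 0.0166, and -0.64 ± 0.13, adjusted p = 0.0344. Of 14 protein kinase list genes, 3 (21.4%) were higher and 1 (7.14%) was lower, beside 9.35% and 9.89% of all genes. Of 5 histone genes 1 (20.0%) was higher, the H2A gene XP_027042670 (domain of its ortholog), with 1.06 ± 0.12, adjusted p = 0.00795.

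**Figure D3:**
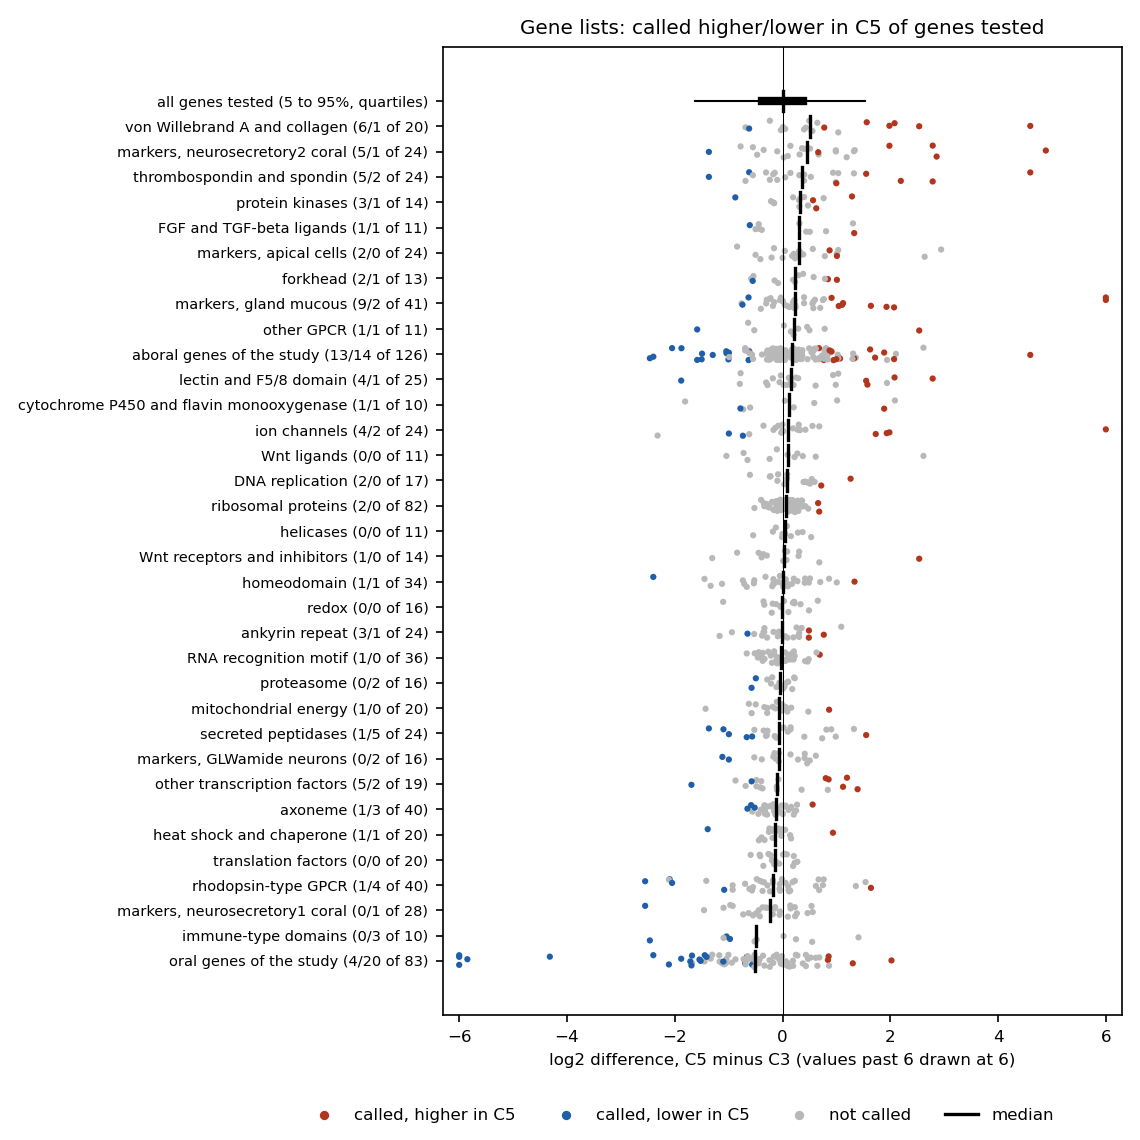
Each point is the log2 difference between C5 and C3 of 1 gene of a list with at least 10 tested genes, red where called higher in C5, blue where called lower in C5 and grey where not called, with the list median as a black bar and the spread of all genes tested in the top row. Medians lie between -0.52 for the oral genes and 0.52 for the von Willebrand factor A and collagen genes, while ribosomal proteins stay between -0.52 and 0.68.

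Of the 4 neuropeptide precursor genes, which encode signalling peptides of neurons and secretory cells, 1 was called, beside 19.2% of all genes. GVWamide (XP_027059473) had 9.99 and 25.8 CPM in aboral and oral ends of C5, against 17.5 and 41.9 CPM in those of C3, and it was lower in C5 at both ends (log2 difference -0.75 ± 0.15, adjusted p = 0.0322). RFamide (XP_027051563) had 97.3 and 28.0 CPM in aboral and oral ends of C5, against 116 and 6.98 CPM in those of C3, so that the colonies were close at the aboral end and C5 was higher at the oral end, with log2 differences of -0.25 and 1.99. HFRIamide (XP_027045495) had 16.9 and 9.89 CPM in aboral and oral ends of C5, against 23.2 and 3.15 CPM in those of C3, with log2 differences of -0.46 and 1.62. The GLWamide precursor (XP_027060553) had 6.03 and 15.4 CPM in aboral and oral ends of C5, against 10.6 and 9.77 CPM in those of C3, with -0.81 and 0.65. None of these last 3 was called (adjusted p = 0.345, 0.533 and 0.916).

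Of the 8 taurine and GABA genes, 2 were called, both receptors and both lower in C5. Over all genes, 19.2% were called and 9.89% were called lower in C5. The list is short, and its count was not tested against these shares. The GABBR2-like gene XP_027040340, related to the metabotropic GABA receptor subunits, had 19.7 and 14.8 CPM in aboral and oral ends of C5, against 48.8 and 27.9 CPM in those of C3, a log2 difference of -1.12 ± 0.17, adjusted p = 0.0161. GABRB1-like (XP_027040858), related to the ionotropic GABA receptor subunits, had 14.0 and 11.5 CPM in aboral and oral ends of C5, against 34.8 and 18.2 CPM in those of C3, a log2 difference of -0.995 ± 0.22, adjusted p = 0.036. The other GABBR2-like gene (XP_027036429), with 132 and 69.1 CPM in C5 and 103 and 46.9 CPM in C3, and GABBR1-like (XP_027040334), with 247 and 198 CPM in C5 and 386 and 262 CPM in C3, had log2 differences of 0.46 ± 0.13, adjusted p = 0.0619, and -0.52 ± 0.13, adjusted p = 0.0527. These 2 were not called and their signs differed.

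None of the TauD, TauE/SafE and VIAAT-like genes was called. The paper treats taurine only as a candidate substrate of the TauD proteins. TauDa (XP_027047514), of a family named after a bacterial taurine dioxygenase, had 2779 and 1 counts in C5 and 3226 and 0 counts in C3. Its log2 difference between colonies was -0.16 ± 0.22, adjusted p = 0.636. A second member of the TauD family (XP_027047515) had -0.21, and the TauE/SafE transporter family gene (XP_027044995) had 31.2 and 2.76 CPM in C5 and 22.1 and 2.79 CPM in C3 and 0.29 ± 0.21, adjusted p = 0.378. VIAAT-like (XP_027037249), related to the vesicular transporter of inhibitory amino acids, had 0.51 ± 0.32, adjusted p = 0.305.

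In some genes the colony difference depended on the end. The difference between the ends in the colony difference exceeded 1 on the log2 scale in 1928 genes (11.2%), with a median absolute value of 0.29 over all genes. With 4 libraries for 4 combinations there is no residual to test it, and these values come from 1 library per bar in the plot of end-dependent genes. Of the 33 genes at least 2-fold in opposite directions, 11 had at least 10 CPM in any library, and 1 of these had a name.

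That gene was FGF-like (XP_027049367), a fibroblast growth factor and diagnostic apical marker, at 71.4 and 2.41 CPM in aboral and oral ends of C5, against 30.7 and 16.2 CPM in those of C3. C5 was higher at the aboral end (log2 difference 1.22) and lower at the oral end (-2.71), so that the level at the aboral end over that at the oral end was far greater in C5. The other FGF gene, XP_027043936, was scarce in the oral ends of both colonies.

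The annotated gene with the largest dependence on the end was a multicopper oxidase, XP_027057044, with 2263 and 1100 counts in C5 and 1231 and 0 counts in C3. In oral ends it had 48.1 CPM in C5 and no count in C3, whereas in aboral ends C5 had 95.4 CPM and C3 had 50.8 CPM. The Lustrin domain gene XP_027059477 (domain of its ortholog), of a family found in shell and secreted matrix proteins of molluscs, had 1524 and 589 counts in C5 and 1118 and 29 counts in C3. The rhodopsin-type receptor XP_027039433 had 14.0 and 2.89 CPM in C5 and 10.9 and 0.103 CPM in C3. In these 3 genes the aboral ends of the colonies were within 2-fold of each other. In oral ends C5 was higher, by 4.03 on the log2 scale in XP_027059477 and by 3.95 in XP_027039433. The Kunitz domain gene XP_027044268, of a family of protease inhibitors, had 16.0 and 0.350 CPM in C5 and 1.94 and 0.517 CPM in C3, so that its colony difference lay mainly at the aboral end. None of these 5 genes was called between the colonies (adjusted p = 0.742, 0.206, 0.163, 0.26 and 0.132). They were chosen for a colony difference that varied most between the ends. The model counts that variation as spread, so the lack of calls follows from the choice and is no separate result.

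**Figure D4:**
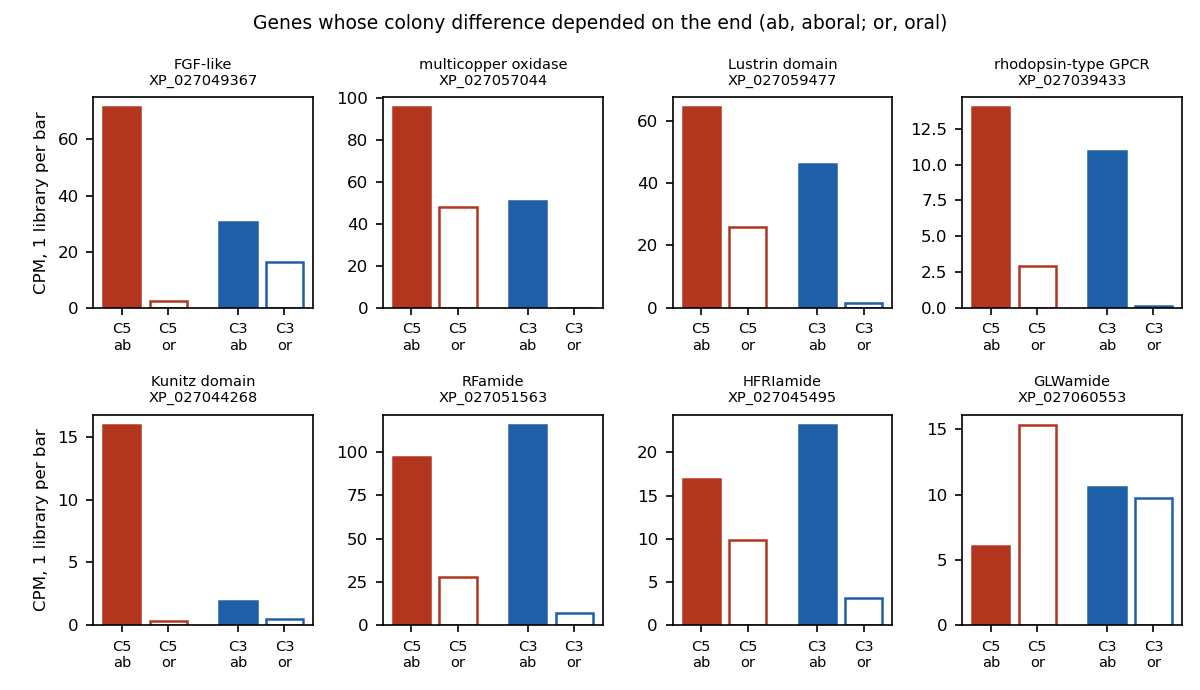
CPM in each of the 4 libraries, with C5 in red left of C3 in blue and filled bars for aboral and open bars for oral ends, for the 5 annotated genes whose colony difference varied most between the ends and for 3 neuropeptide precursors. FGF-like was higher in C5 at the aboral end and lower in C5 at the oral end, while RFamide and HFRIamide were higher in C5 at the oral end and lower in C5 at the aboral end.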

How the data were processed

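Total RNA from pooled aboral or oral ends was sequenced by the authors as paired-end DNBseq libraries. Per the labels and methods, the authors mapped the Pocillopora acuta reads with STAR to the genome of the related Pocillopora damicornis and deposited the unnormalized read counts of each gene model. Strand use was not stated, and how reads of overlapping or near-identical gene models were assigned was not examined. Symbiont reads were not analysed here. The files held 19922 gene models. The reference gene table matched 0 of them. Names and domains were taken from the study's lists by ID, and no sequences are shown.

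The counts were analysed in R 4.3.3 with edgeR 4.0.16 (filterByExpr by colony, TMM scaling, estimateDisp, glmQLFit in legacy mode, end and colony as terms). The filter left 17164 genes, with 1 residual degree of freedom, to which the prior added 4.17, and a biological coefficient of variation of 0.167. Tests were two-sided, with Benjamini-Hochberg adjustment, and glmTreat tested differences past 2-fold. The steps were tested on simulated data. CPM were computed with effective library sizes. Total counts of 20256336 to 24838448 per library set the counting precision. DESeq2 1.42.0 served as an alternative, beside other scalings, filters, fits without the end term, and left-out libraries.

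Genes were named by rule. Named were the 12 largest annotated calls each way with at least 2-fold at both ends and 10 CPM, up to 3 calls each way in each list (or the most abundant gene of a list with none), the 5 most abundant genes at 0 in the other colony, the 5 annotated genes most dependent on the end, the 2 largest unannotated calls each way, and all diagnostic markers, neuropeptide precursors and taurine and GABA genes. The text gives most of the 146 genes so named. The comparison, the members and the lists were chosen with earlier results of these data known. The study's table of ortholog domains was held only in part, so the domain lists may lack members. ALK-like was placed with the gland and mucous markers, as the study's marker list has it, and HFRIamide only with the neuropeptides. The other species were fitted with their aboral and oral libraries only.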

Additional observations from a re-analysis of the deposited data

Results flagged for a closer look

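In 7 named genes the C5 library was higher than the C3 library at one end and lower at the other, with the log2 colony differences at least 1 unit apart. The value given is the difference at the aboral end minus that at the oral end. It was not tested, since each end had 1 library per colony. The value was 3.93 for FGF-like (XP_027049367), 3.45 for the Kunitz domain gene XP_027044268 and 1.03 for the Wnt ligand gene XP_027043512, which were relatively higher in C5 at the aboral end. It was -2.24 for RFamide (XP_027051563), -2.08 for HFRIamide (XP_027045495), -1.45 for the GLWamide precursor (XP_027060553) and -1.18 for PAX6-like (XP_027036201), which were relatively higher in C5 at the oral end.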

How the results depend on the processing

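The calls depended on the end term. Without the replicate block, that is without the end term that pairs the libraries of an end, 87 genes were called and 19 passed 2-fold, and all 87 were among the 3302. Leaving out 1 library, which also removed the end term, gave 0 to 0 calls and 0 to 0 genes past 2-fold, with 1657 to 3942 genes at an unadjusted p under 0.05. The lone library of a colony was then assumed to vary like the other colony, and the ends were no longer balanced. Of the 108 named and called genes, 4 to 12 had the other sign in these fits. Under the other scalings, filters and tools, 2700 to 3828 genes were called (2700 by DESeq2, 2511 of them among the 3302) and 532 to 926 passed 2-fold. None of the named calls changed sign there, and 87 to 108 of them remained calls.

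At least 4-fold differences at both ends were found for 743 genes. Of genes with 10 CPM or more in any library, 1048 differed at least 2-fold at both ends. The correlation between the ends was 0.86 for genes of at least 10 CPM on average. With prior counts of 0.5 and 5, alternatives chosen after seeing the data, 45 and 21 genes differed by 2-fold in opposite directions. Genes at 0 counts in one colony numbered 39 with a minimum of 1 CPM, 6 with 10 CPM and 25 when up to 3 counts were allowed in the empty colony. Of the 49 lists, 41 to 45 kept their count of calls within 1.5 times under the other scalings, filters and tools. Without the end term 9 of 49 did, and the 166 members called became 1, or 0 with a library left out. With 2 libraries per colony from 1 batch each, no spread among larval batches could be measured.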
